A study of Mus musculus with 6 samples.

Results

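The p53 pathway genes described here were 10 genes chosen by name: Trp53, Mdm2, Mdm4, Ccng1, Phlda3, Zmat3, Trp53inp1, Sesn2, Aen and Ei24. All 10 were among the 21878 listed genes of each library, and 9 of them were among the 10449 genes that could be tested. The cells were HSCs of WT C57BL/6 mice, sorted from BM as Lineage- Sca1+ c-Kit+ Flk2- CD34- cells and profiled by RNA-seq, with 3 libraries from vehicle-treated control mice and 3 from mice killed 1 day after a single subcutaneous dose of recombinant IGF1. The labels disagree on the treatment, since the treatment entry names IGF1 while the text on RNA extraction speaks of irradiated mice, and the groups follow the treatment entry. No label says whether the libraries of a group came from separate mice, so p-values measure the spread between libraries, which may be technical. In such bulk libraries, fewer cells of a type and less RNA per cell cannot be told apart.

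p53, the product of Trp53, is a transcription factor that is held at a low level in unstressed cells and accumulates after DNA damage and other stress. Mdm2 marks p53 for degradation and is itself switched on by p53, which closes a feedback loop, and its relative Mdm4 mainly blocks the activation domain of p53. Among the targets of p53, some stop the cell cycle or alter its control (Cdkn1a, Ccng1), some promote apoptosis (Bax, Bbc3, Pmaip1, Aen, Ei24), and some restrain growth signalling or oxidative stress (Phlda3, Sesn2, Trp53inp1). In HSCs p53 is known for keeping cells quiescent and for their response to irradiation, and Phlda3 is a competitive inhibitor of Akt, a kinase of the pathway that IGF1 activates.

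Control replicate 2 stood apart from the other controls, so fold changes of the members and of the other p53 pathway genes named are given with and without it. More than 2-fold apart were 0 genes between control replicates 1 and 3, 2504 and 2510 genes between these and control replicate 2, and 94 to 113 genes between control replicate 2 and the IGF1 libraries. On the first principal component, with 93.2% of the variance, control replicate 2 scored 17.8 against -64.7 and -64.8 in the other controls and 36.6 to 37.8 in the IGF1 libraries. Reads recovered from the steps of the values came to between 11206800 and 15973834 per library. Of 20 HSC identity genes, 15 reached 1 FPKM in at least 3 libraries, with a summed level of 2195.6 to 2375.8 FPKM in controls and 1752.7 to 1824.7 in IGF1 libraries, while Hoxb5, Vwf, Slamf1 and Fgd5 were low. Cd34, which the gate required to be absent from the surface, stood at 265 to 640 FPKM in controls and 230 to 238 in IGF1 libraries, and Flt3, which encodes the likewise excluded Flk2, at 117 to 172 and 183 to 188. Among genes of other cells, the summed level of 16 neutrophil and monocyte genes was 3282.6 to 4364.3 against 4506.0 to 4530.2 FPKM. That of 11 B lineage genes was 121.6 to 500.0 against 476.5 to 495.6, and that of 10 listed T and NK genes 389.4 to 813.1 against 805.2 to 822.1. Control replicate 2 was the highest control each time. Nkg7 made up most of the T and NK sum, at 366, 776 and 356 FPKM in controls and 767 to 787 in IGF1 libraries. Cd3d, Cd3e and Cd8a stayed below 1 FPKM. Of the neutrophil and monocyte genes, 4 (Ngp, Camp, S100a8, S100a9) were called lower and 0 higher by the rule given below. Elane and Prtn3 of the same list went the other way. Elane stood at 92.4 to 576 FPKM in controls and 692 to 709 in IGF1 libraries, and Prtn3 at 547 to 1525 and 1694 to 1731. Erythroid genes summed to 73.9 to 122.0 against 71.2 to 76.7, megakaryocyte genes to 126.6 to 145.1 against 153.9 to 164.2 with 2 of them called higher, and stromal and endothelial genes to 32.9 to 61.8 against 36.8 to 38.3, with Cdh5, Lepr and Col3a1 near 0. The part of these cells, and of control replicate 2, in the results on the p53 pathway was not tested.

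Values are FPKM, fragments scaled to gene length and library depth. Differences are limma log2 fold changes of FPKM + 1, IGF1 versus control, on which changes of weakly expressed genes appear too small, with their standard error (SE). A gene was called when its fold change was over 2 and its Benjamini-Hochberg adjusted p over all tested genes was under 0.05. By that rule 207 genes (1.98% of those tested) were higher and 484 (4.63%) lower in IGF1- versus vehicle-treated HSCs. This split depended on the scaling of the libraries, with 304 higher and 319 lower after quantile normalization, 297 and 260 after TMM scaling, and 349 and 188 after scaling to the 75th percentile. The median log2 fold change of all tested genes was -0.18, and it was -0.02, 0.00 and 0.12 under those 3 scalings. The sign of each of the 9 tested members was the same under all 3.

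Of the 9 tested members, 1 was called lower (Sesn2) and 0 higher in limma at these thresholds. By adjusted p alone, with no fold threshold, 2 were lower (Trp53, Sesn2) and 1 was higher (Phlda3), where 14.1% of all tested genes were lower and 6.26% higher. The 3 IGF1 libraries lay below all controls for 5 members (Trp53, Ccng1, Sesn2, Aen, Ei24) and above them for Phlda3, where such a separation was seen in 37.4% of all tested genes in the lower and 21.9% in the higher direction. Without control replicate 2, those 5 members were called lower and 0 higher, against 20.6% and 12.3% of all tested genes. The median log2 fold change of the 9 members was -0.82, and -1.05 without control replicate 2, beside medians over all tested genes of -0.18 and -0.25. The members' median was -0.48 under 75th percentile scaling and -0.47 with trends with gene length and GC content removed. The members' values by library show the same arrangement for Trp53, Ccng1, Aen, Ei24 and Sesn2, with 2 high controls, control replicate 2 close to the IGF1 libraries, and the IGF1 libraries at the bottom.

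**Figure D1:**
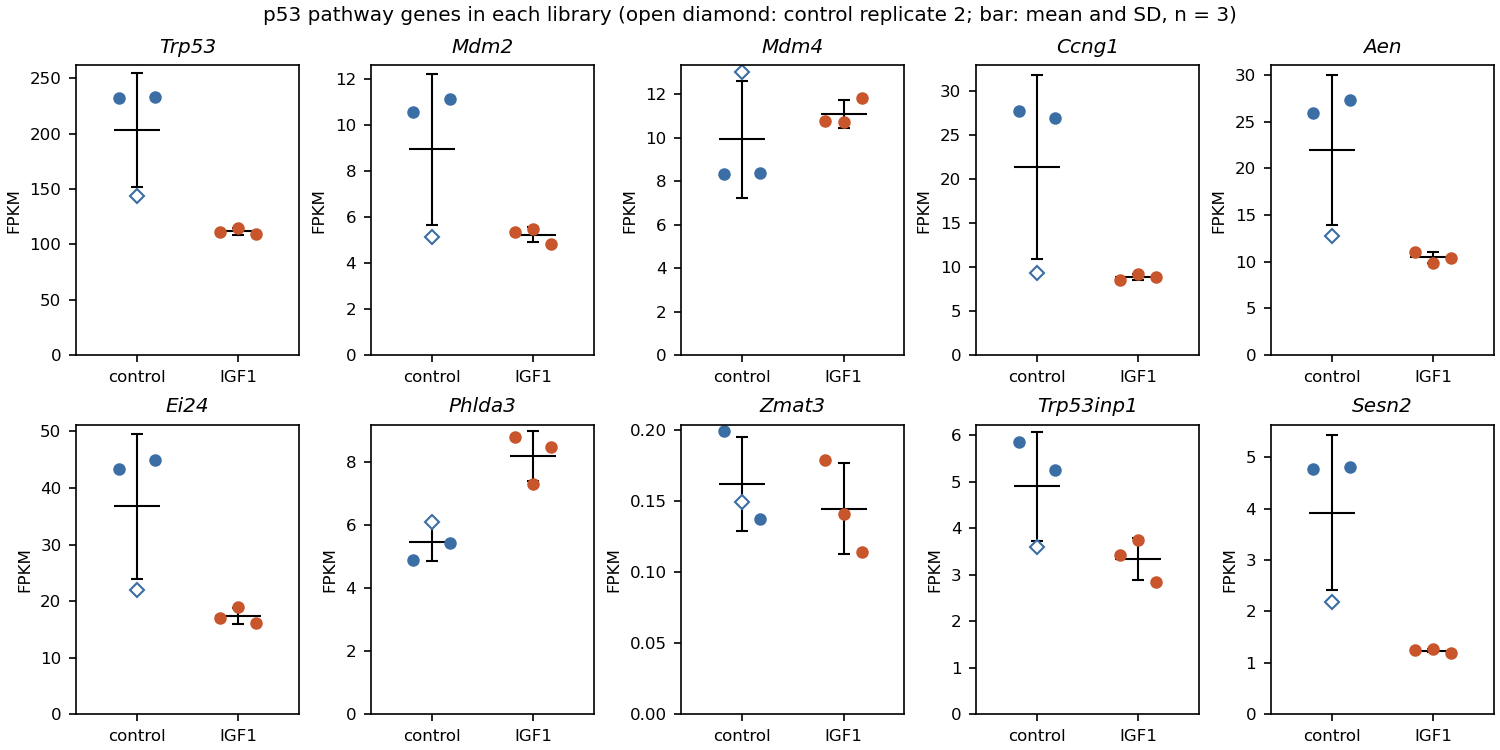
FPKM of the 10 p53 pathway genes in each of the 3 control and 3 IGF1 libraries, with the axes starting at 0, control replicate 2 drawn as an open diamond, and the mean and SD (n = 3) as bars. The IGF1 libraries lie below every control for Trp53, Ccng1, Aen, Ei24 and Sesn2 and above every control for Phlda3, and the groups overlap for Mdm2, Mdm4, Zmat3 and Trp53inp1.

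**Figure D2:**
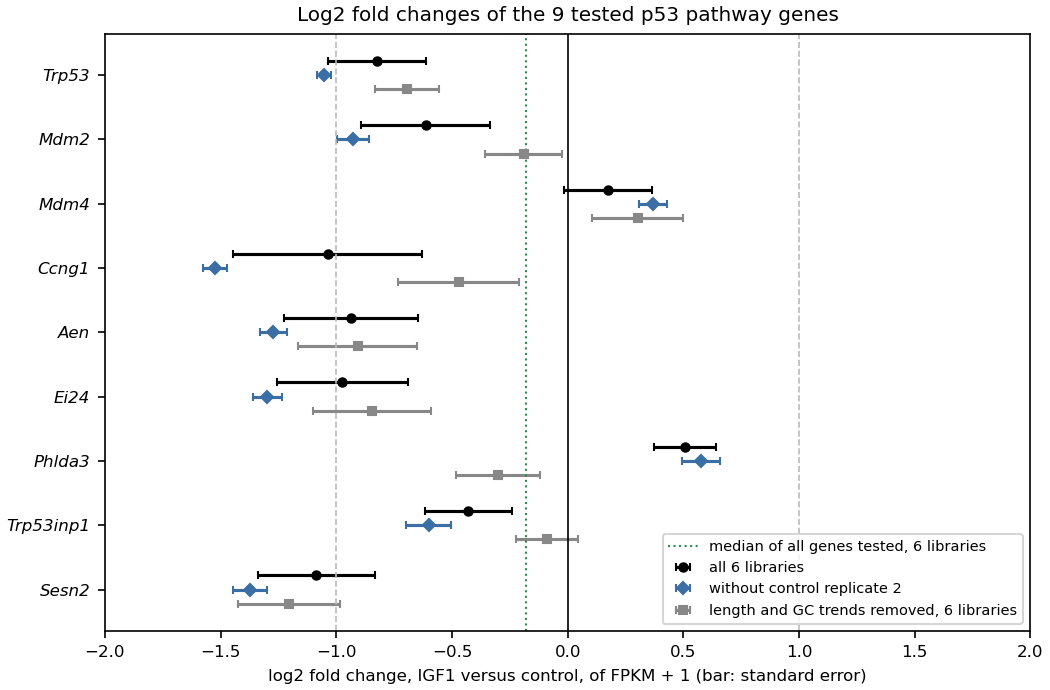
Log2 fold changes, IGF1 versus control, of FPKM + 1 for the 9 tested members, with standard errors as bars, over all 6 libraries, without control replicate 2, and after removing trends with gene length and GC content. Dashed lines mark 2-fold, and the dotted line marks the median of all tested genes at -0.18, with only Mdm4 and Phlda3 to the right of 0 over all 6 libraries.

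The stretch around each start of transcription is shown for the 5 members in which a p53 decamer was found. The members were chosen by name as p53 pathway genes, several of them p53 targets, so the decamers are not independent of that choice. Windows from 250 bases before to 50 bases after the RefSeq start (GRCm38.p6, mouse) were present for 8 members, and the decamer of the p53 consensus site was searched on both strands with 0 mismatches. It occurred in 5 of those 8 genes, and in 2582 of 27025 genes (9.6%) with such a window. A pair of decamers at most 13 bases apart, with at most 1 base off in all, occurred in Ccng1 alone among the members and in 0.72% of all genes. Overlap with other motifs was not examined, and a match describes the letters and not a bound site. The windows of Mdm4, Phlda3 and Sesn2, the only member called over all 6 libraries, held no exact decamer, and windows of Zmat3 and Trp53inp1 were not analysed here. Capitals mark the decamer, and in Ccng1 the pair, in windows printed 5′ to 3′ along the gene. They lie at chr11:69580109-69580408 (Trp53, plus strand, decamer 75 bases before the start), chr10:117710709-117711008 (Mdm2, minus strand, 186 before), chr11:40755237-40755536 (Ccng1, minus strand, the exact decamer 185 before), chr7:78895677-78895976 (Aen, plus strand, 10 after) and chr9:36797285-36797584 (Ei24, minus strand, 10 before). Aen has another RefSeq start, and the same decamer lies 121 bases before that one.
Trp53: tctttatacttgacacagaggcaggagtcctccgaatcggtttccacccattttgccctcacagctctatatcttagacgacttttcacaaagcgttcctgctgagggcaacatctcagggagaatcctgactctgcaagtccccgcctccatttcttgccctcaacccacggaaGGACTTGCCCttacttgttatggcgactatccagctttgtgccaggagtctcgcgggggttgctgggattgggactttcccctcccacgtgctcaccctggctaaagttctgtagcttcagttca
Mdm2: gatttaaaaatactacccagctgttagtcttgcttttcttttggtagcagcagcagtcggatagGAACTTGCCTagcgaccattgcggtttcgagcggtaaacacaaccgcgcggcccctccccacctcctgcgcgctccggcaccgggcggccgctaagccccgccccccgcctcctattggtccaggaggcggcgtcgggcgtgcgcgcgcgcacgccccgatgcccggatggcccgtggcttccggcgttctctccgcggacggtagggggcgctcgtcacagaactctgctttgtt
Ccng1: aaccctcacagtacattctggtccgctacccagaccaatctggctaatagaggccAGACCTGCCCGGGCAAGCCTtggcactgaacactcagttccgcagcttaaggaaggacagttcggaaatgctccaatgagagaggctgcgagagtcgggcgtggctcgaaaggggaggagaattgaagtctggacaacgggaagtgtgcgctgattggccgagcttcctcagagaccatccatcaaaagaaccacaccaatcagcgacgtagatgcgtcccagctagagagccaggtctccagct
Aen: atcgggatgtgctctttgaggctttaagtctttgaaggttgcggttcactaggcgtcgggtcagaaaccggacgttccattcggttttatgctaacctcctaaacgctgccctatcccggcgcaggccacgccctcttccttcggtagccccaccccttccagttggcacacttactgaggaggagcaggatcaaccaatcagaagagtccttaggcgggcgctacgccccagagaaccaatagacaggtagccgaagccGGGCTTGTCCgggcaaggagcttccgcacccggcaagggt
Ei24: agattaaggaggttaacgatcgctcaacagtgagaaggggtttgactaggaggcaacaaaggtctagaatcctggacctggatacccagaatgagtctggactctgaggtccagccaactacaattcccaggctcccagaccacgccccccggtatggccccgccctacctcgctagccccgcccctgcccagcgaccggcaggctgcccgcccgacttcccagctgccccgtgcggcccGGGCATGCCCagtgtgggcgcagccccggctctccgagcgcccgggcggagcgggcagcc

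Trp53 (ENSMUSG00000059552.13, chromosome 11, 69580359 to 69591873, plus strand, GRCm38) encodes p53 and was the most abundant member in both groups. It stood at 232, 144 and 233 FPKM in control replicates 1, 2 and 3 and at 111, 115 and 109 in IGF1 replicates 1, 2 and 3. Each IGF1 library lay below each control, with control replicate 2 the lowest control. The mean was 203 ± 51.3 FPKM (SD, n = 3) in controls and 112 ± 2.90 in IGF1 libraries, a 1.82-fold difference of the means. The log2 fold change was -0.82 (SE 0.21), with a limma adjusted p of 0.0468, so that Trp53 passed the p threshold but not the fold threshold. It was -1.05 (SE 0.03, adjusted p 6.57e-10) without control replicate 2, and Trp53 was then called lower. Within the libraries, Trp53 moved from percentile 96.4 of the tested genes in control replicates 1 and 3 to 91.3 in the IGF1 libraries, with control replicate 2 at 92.7.

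The inhibitors of p53 gave values that overlapped between groups. Mdm2 (ENSMUSG00000020184.15, chromosome 10, 117688875 to 117710758, minus strand), the ubiquitin ligase and p53 target whose window with a decamer is printed above, stood at 10.6, 5.16 and 11.1 FPKM in controls and 5.37, 5.47 and 4.85 in IGF1 libraries. Control replicate 2 lay among the IGF1 libraries, and the other controls lay above them. The log2 fold change of Mdm2 was -0.61 (SE 0.28, adjusted p 0.117 in limma) and -0.93 (SE 0.07, adjusted p 4.73e-07) without control replicate 2, short of 2-fold in each case.

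Mdm4 (chromosome 1, 132959484 to 133030561, minus strand), which inhibits p53 without degrading it on its own, went the other way in control replicates 1 and 3. It stood at 8.33, 13.1 and 8.40 FPKM in controls and 10.8, 10.7 and 11.8 in IGF1 libraries. Control replicate 2 was the highest of all 6 libraries, and the remaining controls were the lowest. The log2 fold change of Mdm4 was 0.17 (SE 0.19, adjusted p 0.457 in limma), and 0.37 (SE 0.06, adjusted p 0.000245) without control replicate 2.

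The balance between the 2 inhibitors was therefore set beside their levels. Mdm4 FPKM over Mdm2 FPKM was 0.789, 2.53 and 0.755 in controls and 2.003, 1.96 and 2.44 in IGF1 libraries. Mdm2 exceeded Mdm4 in control replicates 1 and 3, and Mdm4 exceeded Mdm2 in control replicate 2 and in every IGF1 library. As a difference of log2(FPKM + 1), Mdm4 minus Mdm2 averaged 0.17 ± 0.88 (SD, n = 3) in controls and 0.96 ± 0.15 in IGF1 libraries, a difference of 0.79 with an exact 2-sided permutation p of 0.4. The smallest p that 3 libraries against 3 allow is 0.1. Without control replicate 2 the difference was 1.30, the groups did not overlap, and the p was the smallest that 2 libraries against 3 allow (exact permutation p = 0.1).

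Ccng1 (chromosome 11, 40748552 to 40755311, minus strand), which encodes cyclin G1, a p53 target that also acts on Mdm2, carries the pair of decamers printed above. It stood at 27.7, 9.32 and 27.0 FPKM in controls and 8.56, 9.14 and 8.87 in IGF1 libraries. Control replicate 2 lay just above the highest IGF1 library, so that the groups were separate by a small margin. The mean was 21.3 ± 10.4 against 8.86 ± 0.29 FPKM, a 2.41-fold difference, and the log2 fold change was -1.04 (SE 0.41, adjusted p 0.0865 in limma). When control replicate 2 was left out, Ccng1 fell by 1.52 in log2(FPKM + 1) (SE 0.05, adjusted p 1.58e-09 in limma). This was the largest fall among the members on that scale, which makes changes of weakly expressed genes appear too small. As a fold of mean FPKM over all 6 libraries, the fall was larger in Sesn2 (3.18-fold) than in Ccng1 (2.41-fold).

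Aen and Ei24 are p53 targets linked to apoptosis, and their values ran side by side. Aen (chromosome 7, 78895854 to 78911209, plus strand) encodes a nuclease that degrades DNA in dying cells, and stood at 26.0, 12.7 and 27.3 FPKM in controls and 10.99, 9.89 and 10.4 in IGF1 libraries. Ei24 (chromosome 9, 36779159 to 36797393, minus strand) encodes an endoplasmic reticulum protein, and stood at 43.3, 21.98 and 44.9 FPKM in controls and 17.1, 18.9 and 16.1 in IGF1 libraries. In each gene the groups did not overlap and control replicate 2 was the control nearest to the IGF1 libraries. The log2 fold change of Aen was -0.94 (SE 0.29, adjusted p 0.0588 in limma), and -1.27 (adjusted p 1.16e-08) without control replicate 2. For Ei24 it was -0.97 (SE 0.28, adjusted p 0.054 in limma), and -1.30 (adjusted p 2.15e-08) without control replicate 2. Neither was called over all 6 libraries, and both were called lower without control replicate 2. Ei24 shares 324 exonic bases with an antisense gene, Gm26787, which the files do not list, and whether the counting used strand is not given in the sources used here.

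Sesn2 (chromosome 4, 132492032 to 132510501, minus strand), a stress-induced p53 target that senses leucine and restrains mTORC1, was the only member called over all 6 libraries. It stood at 4.77, 2.18 and 4.81 FPKM in controls and at 1.24, 1.26 and 1.196 in IGF1 libraries. Each IGF1 library lay below each control, and control replicate 2 lay between. The mean was 3.92 ± 1.503 against 1.23 ± 0.03 FPKM, a 3.18-fold difference, and Sesn2 fell by 1.09 on the log2 scale (SE 0.25, adjusted p 0.0429 in limma). It fell by 1.37 (SE 0.07, adjusted p 3.68e-08) with control replicate 2 left out. These levels rest on 203, 67 and 206 recovered reads in controls and 38 to 41 in IGF1 libraries, and the rank of Sesn2 moved from percentile 27.2 in control replicates 1 and 3, through 13.3 in control replicate 2, to 4.7 in the IGF1 libraries. Over 17 alternatives the adjusted p of Sesn2 ran from 4.6e-10 to 0.164, and the call was lost, among others, under the 75th percentile and TMM scalings, with a pseudocount of 5, with no filter on low values and when any library other than control replicate 2 was left out.

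Phlda3 (chromosome 1, 135766119 to 135769136, plus strand), the Akt inhibitor, was the only member with every IGF1 library above every control. It stood at 4.89, 6.08 and 5.41 FPKM in controls and 8.80, 7.28 and 8.46 in IGF1 libraries. The mean was 5.46 ± 0.60 against 8.18 ± 0.80 FPKM, a 1.497-fold difference, with a log2 fold change of 0.51 (SE 0.13, adjusted p 0.0483 in limma) that did not reach 2-fold. Without control replicate 2 it was 0.57 (adjusted p 9.38e-05). The sign turned to -0.30 (SE 0.18, adjusted p 0.211) when trends with gene length and GC content were removed, and Phlda3 had the highest GC content of the members, 62.6%.

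For Trp53inp1 and Zmat3 the groups overlapped. Trp53inp1 (chromosome 4, 11156431 to 11174379, plus strand), which encodes a stress protein of p53 and autophagy pathways, stood at 5.85, 3.59 and 5.26 FPKM in controls and 3.42, 3.74 and 2.84 in IGF1 libraries. Control replicate 2 lay among the IGF1 libraries, and the log2 fold change was -0.43 (SE 0.19, adjusted p 0.108 in limma), or -0.60 (adjusted p 0.00019) without that library. Zmat3 (chromosome 3, 32334792 to 32366014, minus strand), a zinc finger RNA-binding protein and p53 target, stood at 0.1998, 0.149 and 0.137 FPKM in controls and 0.179, 0.141 and 0.115 in IGF1 libraries, from 12 to 26 recovered reads. Zmat3 was below the filter of 1 FPKM and was not tested in the main comparison, so whether it differed was not settled. With no filter on low values all 10 members were tested, and 0 were called.

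The order of the members differed between groups in the middle and was the same at the ends. By mean FPKM in controls it was Trp53, Ei24, Aen, Ccng1, Mdm4, Mdm2, Phlda3, Trp53inp1, Sesn2 and Zmat3, and only Trp53 and Ei24, and Sesn2 and Zmat3, were neighbours whose ranges did not overlap. In IGF1 libraries it was Trp53, Ei24, Mdm4, Aen, Ccng1, Phlda3, Mdm2, Trp53inp1, Sesn2 and Zmat3, and only Mdm4 and Aen, and Ccng1 and Phlda3, were neighbours whose ranges overlapped. In control replicates 1 and 3 the mean of Mdm4 lay at percentile 39.9 of tested genes and that of Mdm2 at 46.1, and in the IGF1 libraries they lay at 55.1 and 34.8. Ccng1 went from percentile 68.5 to 49.4 and Aen from 67.9 to 53.6, while Phlda3 went from 28.8 to 47.0. Control replicate 2 lay at percentile 57.4 for Mdm4, 33.0 for Mdm2, 49.2 for Ccng1, 56.8 for Aen and 37.3 for Phlda3. Ranks do not depend on the scaling of a library as a whole.

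**Figure D3:**
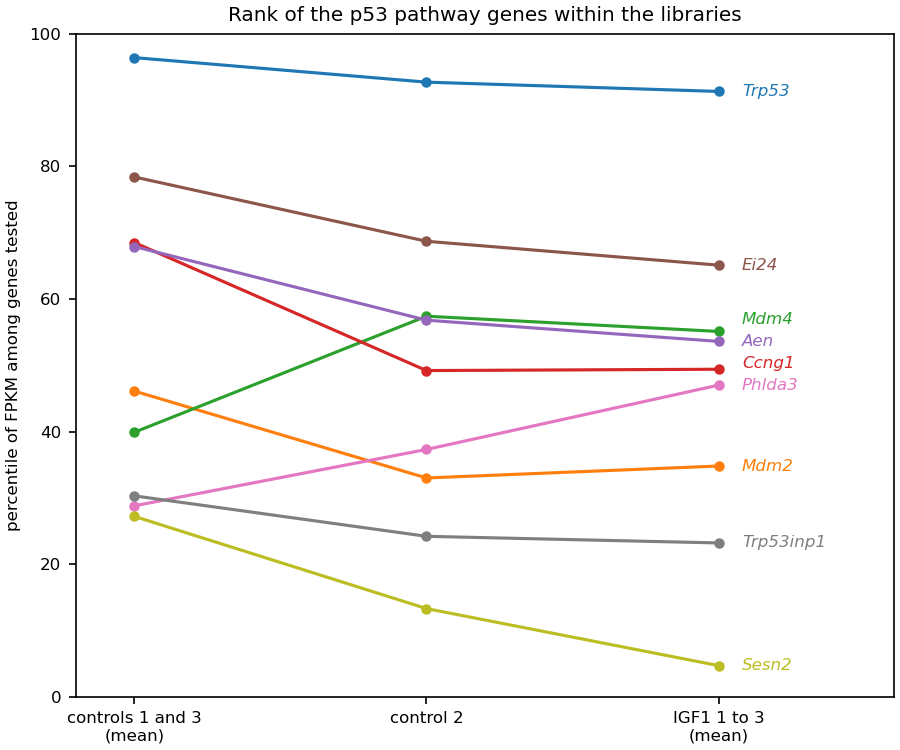
Percentile of each tested member's FPKM among the tested genes of a library (vertical axis, 0 to 100), as the mean of control replicates 1 and 3, in control replicate 2 and as the mean of the IGF1 libraries. Only Mdm4 and Phlda3 are higher in the IGF1 libraries than in control replicates 1 and 3, and the other 7 members are lower.

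Control replicate 2 lay near the IGF1 libraries in most members. On a line from the IGF1 mean, at 0, to the mean of control replicates 1 and 3, at 1, in log2(FPKM + 1), its median position was 0.21 over the 9 members and 0.19 over all tested genes. It was -0.02 for Mdm2, 0.04 for Ccng1, 0.15 for Trp53inp1, 0.21 for Aen, 0.25 for Ei24, 0.35 for Trp53, 0.37 for Sesn2 and 0.64 for Phlda3. Mdm4, at -0.59, lay beyond the IGF1 libraries. The log2 fold change also moved with base composition over all tested genes, with a median of -0.48 in the third of genes with the lowest GC content (31.0% to 46.5%) and 0.13 in the third with the highest (52.9% to 72.8%). The members ran from 38.8% in Trp53inp1 and 40.8% in Ccng1 to 58.7% in Sesn2 and 62.6% in Phlda3. With the trends with length and GC content removed, the log2 fold change was -0.69 for Trp53, -1.204 for Sesn2, -0.91 for Aen, -0.85 for Ei24, -0.47 for Ccng1, -0.19 for Mdm2, -0.09 for Trp53inp1 and 0.30 for Mdm4, and Sesn2 alone was called.

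Other genes of the pathway came from lists typed by role, with 83 names of which 81 were listed and 70 tested. Of these 70 genes, 1 was called higher and 4 lower, beside 1.98% and 4.63% of all tested genes. The direction of these few calls turned with the scaling, with 4 higher and 0 lower under 75th percentile scaling, 1 and 0 under TMM scaling, and 1 and 1 after quantile normalization. By adjusted p alone 6 were higher and 9 lower, beside 6.26% and 14.1%. The groups did not overlap for 22 of the 70 in the higher and 17 in the lower direction, beside 21.9% and 37.4% of all tested genes. The higher direction was thus more common, and the lower less common, than over all tested genes, and neither difference was tested. With control replicate 2 left out, 11 were called higher and 10 lower, beside 12.3% and 20.6%. Their median log2 fold change was -0.05, and -0.07 without control replicate 2, beside -0.18 over all tested genes and -0.82 over the members.

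**Figure D4:**
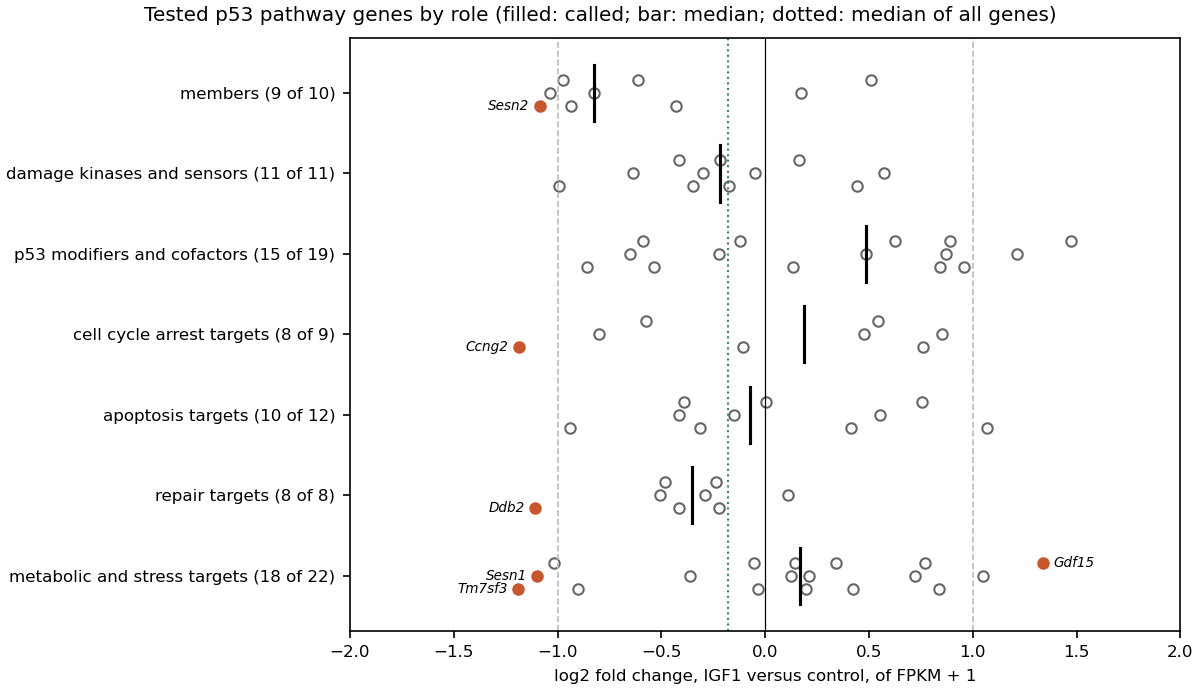
Log2 fold changes, IGF1 versus control, of FPKM + 1 for the tested members and for the other p53 pathway genes by role, with the number tested of the number listed, filled points for called genes, bars for medians and dashed lines at 2-fold. The 6 called genes are Sesn2, Ccng2, Ddb2, Sesn1 and Tm7sf3 on the lower side and Gdf15 on the higher side, and each role drawn holds points on both sides of 0.

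Upstream of p53, 0 of 11 damage kinases and sensors were called in limma, and 1 was lower by adjusted p alone. That gene was Chek1, the checkpoint kinase of stalled replication forks, at 14.2, 7.41 and 14.5 FPKM in controls and 5.46, 5.68 and 4.87 in IGF1 libraries. Its log2 fold change was -0.99 (SE 0.26, adjusted p 0.0483 in limma), and it was called lower without control replicate 2 at -1.28. With length and GC trends removed it was -0.45 (adjusted p 0.0599 in limma). H2afx, the histone whose phosphorylated form marks DNA breaks, stood at 239, 285 and 241 against 358, 333 and 345 FPKM. Its log2 fold change was 0.44 (SE 0.13, adjusted p 0.0547 in limma), 0.52 without control replicate 2, and -0.39 with length and GC trends removed. The median of this role was -0.22, and -0.49 without control replicate 2.

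Among p53 modifiers and cofactors, 15 of 19 names were tested, 0 were called in limma, and 2 were lower by adjusted p alone. These were Rfwd2 (-0.59, SE 0.13, adjusted p 0.0419), which encodes the ubiquitin ligase COP1, and Rchy1 (-0.54, SE 0.14, adjusted p 0.0468), which encodes the ubiquitin ligase PIRH2. Each of these p53 ubiquitin ligases had IGF1 libraries below every control, at 3.15 to 3.25 against 4.48 to 6.10 FPKM for Rfwd2 and 19.9 to 20.6 against 24.8 to 33.7 FPKM for Rchy1. Their log2 fold changes were -0.69 and -0.66 without control replicate 2, and -0.42 each, with adjusted p of 0.0573 and 0.0629 in limma, with length and GC trends removed. Without control replicate 2, 6 of these 15 were called higher and 1 lower, beside 12.3% and 20.6% of all tested genes. The median of this role was 0.48 over all 6 libraries, 0.66 without that library and 0.30 with length and GC trends removed. Cdkn2a, whose p19Arf product restrains Mdm2, was listed at 0 FPKM in all 6 libraries. The p53 relative Trp63 was also listed at 0 in all 6 libraries, and Trp73 was above 0 only in control replicate 1, at 0.01 FPKM.

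Among the cell cycle arrest targets, 1 of 8 tested genes was called lower and 0 higher, and by adjusted p alone 3 were higher and 2 lower. Ccng2, a cyclin of arrested cells, fell, with 40.6, 22.3 and 40.1 FPKM in controls and 14.7, 14.2 and 13.1 in IGF1 libraries (-1.19, adjusted p 0.038 in limma, and -1.46 without control replicate 2). Cdkn1a, the CDK inhibitor p21 and the best-known p53 target, stood at 67.1, 69.1 and 67.4 FPKM in controls and 111, 120 and 116 in IGF1 libraries. All 3 controls, control replicate 2 among them, lay close together and below the IGF1 libraries. The log2 fold change of Cdkn1a was 0.76 (SE 0.09, adjusted p 0.0286 in limma), which did not reach 2-fold, and it was 0.77 without control replicate 2 and 0.61 with length and GC trends removed. Control replicate 2 lay at position 0.95 on the line described above, and 16.5% of all tested genes had a position from 0.5 to 1.5.

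The window at the more upstream of the 2 RefSeq starts of Cdkn1a is shown for comparison with the members' windows. This window, chr17:29090729-29091028 on the plus strand of GRCm38.p6, held exact decamers 73 and 51 bases before that start, each within a pair, and the window of the other start held none. Of the other targets' windows searched, those of Bax and of 1 Sesn1 start held 1 exact decamer each and no pair. Those of Bbc3, Ccng2, Gdf15 and the other Sesn1 start held none. Capitals mark the decamers of Cdkn1a and the partner of the second.
Cdkn1a: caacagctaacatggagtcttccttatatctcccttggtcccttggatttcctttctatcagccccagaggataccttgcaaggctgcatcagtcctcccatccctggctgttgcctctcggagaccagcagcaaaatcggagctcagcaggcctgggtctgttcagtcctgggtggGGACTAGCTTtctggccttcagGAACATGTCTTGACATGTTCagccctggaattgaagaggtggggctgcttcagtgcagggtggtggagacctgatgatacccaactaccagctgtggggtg

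Among the apoptosis targets, 0 of 10 tested genes were called in limma, and 1 was higher by adjusted p alone. That gene was Bbc3, which encodes the BH3-only protein PUMA, at 4.09, 5.95 and 4.31 FPKM in controls and 8.30, 8.85 and 8.83 in IGF1 libraries. Its log2 fold change was 0.75 (SE 0.15, adjusted p 0.038 in limma), 0.89 without control replicate 2, and 0.06 with length and GC trends removed. Bax, the pore-forming effector, stood at 34.1, 73.9 and 36.5 FPKM in controls and 95.2, 91.1 and 101 in IGF1 libraries, with control replicate 2 nearer to the latter. Its log2 fold change was 1.07 (adjusted p 0.0523 in limma), 1.41 and called without control replicate 2, and 0.01 with length and GC trends removed. Pmaip1, which encodes the BH3-only protein NOXA, stood at 6.02, 2.55 and 5.82 against 3.40, 2.79 and 3.302 FPKM, with overlapping groups and a log2 fold change of -0.41 (adjusted p 0.257 in limma), or -0.73 without control replicate 2.

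**Figure D5:**
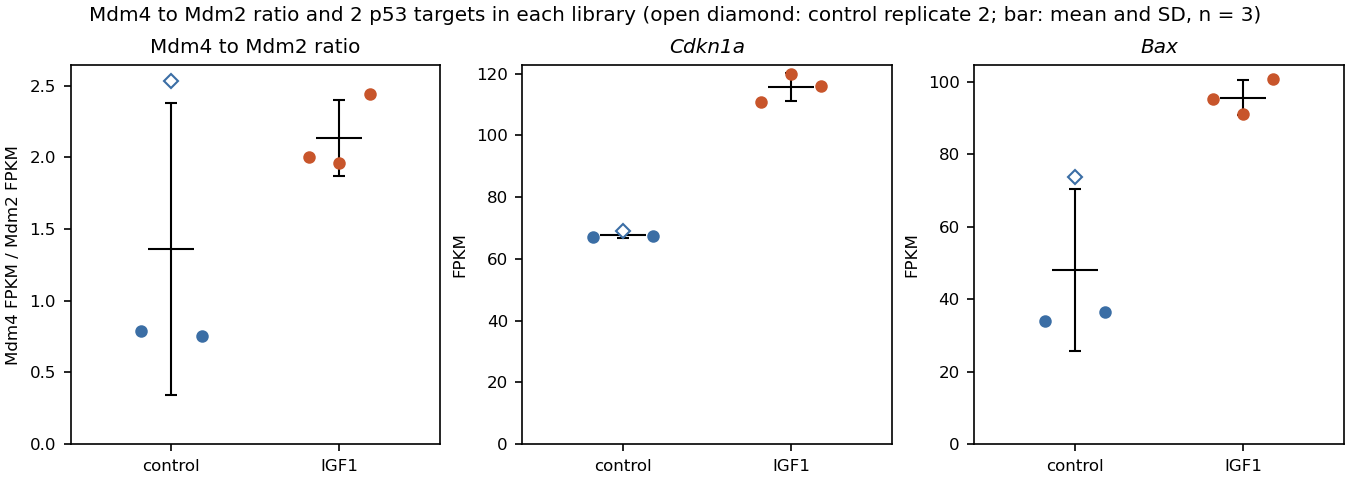
Mdm4 FPKM over Mdm2 FPKM, and FPKM of the p53 targets Cdkn1a and Bax, in each of the 3 control and 3 IGF1 libraries, with the axes starting at 0, control replicate 2 drawn as an open diamond, and the mean and SD (n = 3) as bars. Control replicate 2 lies above every IGF1 library for the ratio, with the other controls for Cdkn1a, and between the groups for Bax.

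Among repair targets, 1 of 8 was called lower. Ddb2, the damage-binding subunit of nucleotide excision repair, fell from 7.21, 4.59 and 7.75 FPKM in controls to 2.12, 2.28 and 2.92 in IGF1 libraries (-1.11, adjusted p 0.0363 in limma, and -1.31 without control replicate 2). Among 18 tested metabolic and stress targets, 1 was called higher and 2 lower. Sesn1, the relative of Sesn2, fell from 44.8, 22.1 and 44.6 FPKM to 14.5, 17.0 and 16.6 (-1.10, adjusted p 0.0481 in limma, and -1.43 without control replicate 2). The third sestrin of the lists, Sesn3, which was named after its values were seen, had overlapping groups. Its log2 fold change was 0.34 (adjusted p 0.219 in limma), and 0.52 (adjusted p 0.00719 in limma) without control replicate 2. Tm7sf3, a membrane protein gene, fell from 39.5, 19.99 and 38.6 to 12.4, 13.7 and 13.4 FPKM (-1.19, adjusted p 0.0423 in limma, and -1.5 without control replicate 2). Gdf15, a secreted stress cytokine, rose from 1.69, 4.01 and 2.603 to 8.15, 7.91 and 8.61 FPKM (1.34, adjusted p 0.0336 in limma, and 1.57 without control replicate 2). Ddb2, Sesn1, Tm7sf3 and Gdf15 had groups that did not overlap, and 0 of these 70 other genes were called in limma once length and GC trends were removed. Ccng2, Ddb2, Sesn1, Tm7sf3 and Gdf15 then kept their sign, at -0.77, -0.79, -0.85, -0.85 and 0.64. Their adjusted p was 0.034 to 0.0428 in limma, so that they missed only the fold threshold.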

How the data were processed

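RNA-seq of sorted mouse HSCs was used, with 3 control and 3 IGF1 libraries grouped by the sample labels. The submitters' processing notes name fastp, HISAT2, StringTie and the GRCm38 (mm10) build, the study's methods name RSEM, and the authors called genes with DESeq2. Each library's deposited table pairs gene symbols with 1 number each. The deposited values were taken as FPKM, although the files do not name the unit, because the values of each gene are whole multiples of 1 step once multiplied by the relative depth of the library (within 0.02 reads, for 15640 of 15640 genes with a value above 0). The fewest whole reads that gave these multiples came to 15879605, 11429198 and 15973834 in controls and 12262662, 11206800 and 12756225 in IGF1 libraries, so their scale is approximate.

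The 10449 genes that reached 1 FPKM in 3 or more libraries were compared on log2(FPKM + 1) in limma 3.58.1 (R 4.3.3, eBayes with a variance trend), with Benjamini-Hochberg adjustment over all 10449 and the study's thresholds, a fold over 2 and an adjusted p under 0.05. Single quantities were compared by exact 2-sided permutation. The scripts were tested on data with known answers. Positions, length and GC content came from GENCODE M21 (GRCm38), length and GC for 99.1% of tested genes, and promoter windows from RefSeq (GRCm38.p6).

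The members and lists were chosen with earlier results of these data known. The genes named are all members, every called gene of each other p53 list or, where none was called, the 2 with the smallest adjusted p, and Cdkn1a, Bax, Bbc3 and Pmaip1. Lists of HSC identity, sort-negative, neutrophil and monocyte, erythroid, B lineage, T and NK, megakaryocyte and platelet, and stromal and endothelial genes were summed, and the 6 listed sort-negative genes summed to 474.7 to 828.1 FPKM in controls and 445.0 to 457.6 in IGF1 libraries. The alternatives were 3 scalings, other filters and pseudocounts, no variance trend, library weights, a replicate block, leaving out each library, and removal of length and GC trends by splines. Voom on the recovered reads was added after the data were seen. Columns of other samples numbered 0.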

Additional observations from a re-analysis of the deposited data

How the results depend on the processing

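Called genes numbered 691 over all tested genes, 1 among the members and 5 among the other p53 pathway genes. In that order, they numbered 374, 0 and 4 with no filter on low values, 223, 0 and 2 with a pseudocount of 5, 420, 1 and 0 with length and GC trends removed, and 3435, 5 and 20 with library weights, in which control replicate 2 had a weight of 0.014. The members called were 0 under 75th percentile scaling, TMM scaling and a minimum of 5 FPKM, which leaves Sesn2 untested, and the other genes called were 2 after quantile normalization, 1 after TMM scaling and 4, all higher, under 75th percentile scaling. Voom on recovered reads, added after the data were seen, called 1059 genes, 1 member and 8 other genes, and adjusted p with no fold threshold called 2130, 3 and 15. Leaving out 1 library at a time gave 0 to 3438 calls over all genes, 0 to 5 among the members and 0 to 21 among the other genes. Only the fit without control replicate 2 made calls (3438, 5 and 21). In limma the others made 0, while 685 to 1181 genes met the fold threshold at an unadjusted p under 0.05.

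The correlations of deviations between libraries with the same replicate number were -0.06, -0.05 and 0.01, so the numbers do not pair the libraries. With the replicate block, limma called 0, 0 and 0 genes, with 680 higher and 1100 lower at an unadjusted p under 0.05 and over 2-fold, 2 members among them. The Mdm4 minus Mdm2 difference was 0.79 with the block, and 0.52 to 1.30 when 1 library was left out. With length and GC trends removed, the sign reversed for Phlda3 (-0.30), H2afx (-0.39) and Pmaip1 (0.10), and it did so for no other of the 22 tested named genes under any alternative. Of 391 pairs of a named gene and an alternative, 311 stayed on the same side of the threshold, 16 became called and 61 lost a call. The cause of these changes was not tested, apart from the smaller sets of genes or libraries. Depth limits Zmat3, with 12 to 26 reads a library, and Sesn2, with 38 to 206.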
